A study of Mus musculus with 31 samples.

Results

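RM-9 tumors sampled 12 h after a single dose of 15 Gy (RT 12 h) were compared with non-irradiated RM-9 tumors (Control) across all genes measured by mRNA sequencing. The libraries were chosen by their labels alone, 4 of RT 12 h and 4 of Control, so 8 of the 31 libraries of the series, each from 1 mouse. RM-9 is a mouse prostate adenocarcinoma line transformed with ras and myc. The hosts were wild-type male C57BL/6J mice, bought at 6 to 7 weeks of age, that received 1 M RM-9 cells under the skin of the right hind leg. Tumors were irradiated at about 8 mm in diameter, and RNA was taken from whole tumor tissue, so each library mixes tumor cells with the immune, vascular and muscle cells of the sample. The control mice were untreated and carry the 3 h time on their labels. The effect of RT and that of any other difference between the 3 h and 12 h harvests therefore cannot be told apart. All RM-9 cells come from 1 cell line, and the groups model that line only.

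Ionizing radiation breaks DNA, and the breaks activate the kinases ATM and ATR, which stabilize the transcription factor p53. p53 induces Cdkn1a, which encodes the inhibitor p21 of cyclin-dependent kinases, and Mdm2, which encodes the ligase that degrades p53 itself. Cells that stop before S phase lose the transcripts that E2F factors drive for DNA replication, whereas cells held in G2 keep those of mitosis, whose promoters often carry a CHR element. In tumors the interferon-stimulated genes and MHC genes are expressed by both cancer cells and infiltrating immune cells.

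The values are TPM, transcript abundances corrected for length and scaled to the same total in every library. The 8 libraries rested on an estimated 23 to 25.2 M reads each. Mitochondrially encoded genes took 49.2% ± 1.49 of the TPM in the controls and 54.1% ± 2.18 at RT 12 h (SD, n = 4 each), a difference of 4.88 percentage points (exact permutation test, two-sided, p = 0.0286, the smallest p that 4 against 4 allows). RT mouse 1 stood apart with 57.2%, and without it the difference was 3.85 points. One gene, mt-Nd4l, took 36.2% to 43.5% of the TPM of a library, and its FPKM was 42.4-fold the value that its coverage gives. Without mt-Nd4l the mitochondrially encoded genes took 18.5% ± 0.44 in the controls and 22% ± 1.57 at RT 12 h, a difference of 3.56 points (exact permutation test, two-sided, p = 0.0286). A larger mitochondrial share leaves less of the TPM total to the other genes. The fold change of the median gene was -0.19 on the log2 scale, and the median level of a library changed by -0.06 after the mitochondrially encoded genes were removed (exact permutation test, two-sided, p = 0.314). Results are therefore given on the deposited scale and again after median-ratio scaling, in which the size factor of a library is its median ratio to a typical library. The epithelial keratins Krt8 and Krt18 were abundant, at 805 to 980 TPM and 253 to 325 TPM in the controls. Epcam, an adhesion protein of epithelial cells, was low at 0.605 to 1.92 TPM over the 8 libraries. Of 12 epithelial markers listed, 6 were abundant enough to test and 2 were at 0 in all 8 libraries. In the controls the epithelial list summed to a mean of 1319 TPM, and 9 mesenchymal tumor markers to 3596 TPM. Krt8, Krt18 and Epcam mark epithelium, and the prostate origin of the line was not checked here.

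**Figure D1:**
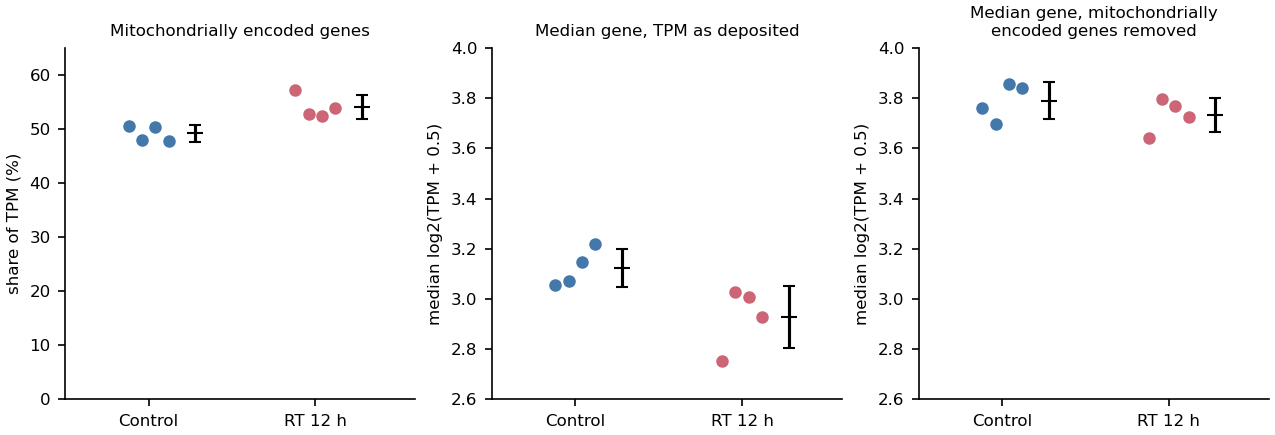
Share of the TPM held by mitochondrially encoded genes (left, %), and the median gene of each library as log2(TPM + 0.5), as deposited (middle) and with mitochondrially encoded genes removed (right). Points are mice, bars are mean and SD (n = 4 per group). All RT mice lie above all controls on the left, and the groups overlap on the right.

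On the deposited scale 10 of 14013 genes tested rose (0.0714%) and 1163 fell (8.3%) at an adjusted p under 0.05 (limma with Benjamini-Hochberg adjustment over all genes). After median-ratio scaling 10 genes rose (0.0714%) and 6 fell (0.0428% of 14006), in all 0.114%, and 9 of these 16 were among the 1173 (8.37%) of the deposited scale. Under that scaling all RT mice lay above all control mice for 504 genes (3.6%) and below them for 504 genes (3.6%). The counts depended on single mice. With control mouse 1, 2 or 4 or RT mouse 1 or 4 left out in turn, no gene passed (limma), with 3037 to 4010 genes at an unadjusted p under 0.05 in those fits against 4344 with all mice.

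The gene groups followed were targets of p53, genes of DNA replication and mitosis, genes of ribosome biogenesis, and the interferon, MHC and cell type markers. Promoter sequence is shown first for the replication, mitosis and interferon genes, since the replication and mitosis lists moved to opposite sides of the median gene. The RefSeq promoters (GRCm38.p6), from 250 bases before to 50 after the start, were available for 9250 of the 13996 symbols tested. E2F letters (TTTCCCGC or TTTGGCGC, either strand) were present in 3.5% of all of these promoters. They were in 13 of 37 replication promoters (35.1%) and 0 of 43 mitosis promoters. Capitals mark the E2F letters in 3 genes of the MCM helicase, which unwinds DNA at replication forks, with the strand of each gene.

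Mcm5 (chr8:75109325-75109402, +): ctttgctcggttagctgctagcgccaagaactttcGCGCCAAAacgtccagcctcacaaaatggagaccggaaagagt
Mcm6 (chr1:128359710-128359850, -): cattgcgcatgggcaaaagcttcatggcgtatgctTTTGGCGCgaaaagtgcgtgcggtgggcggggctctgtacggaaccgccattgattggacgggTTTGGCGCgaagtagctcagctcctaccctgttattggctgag
Mcm7 (chr5:138172006-138172083, -): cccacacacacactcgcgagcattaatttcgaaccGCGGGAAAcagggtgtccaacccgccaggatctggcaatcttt

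Mcm6 carried the letters at 2 places, 110 and 47 bases before the start. The letters TTTGAA (CHR, either strand) were in 14.1% of all promoters, in 33 of 43 mitosis promoters (76.7%) and in 6 of 37 replication promoters (16.2%). Capitals mark them in Prc1, a bundler of spindle microtubules, and Ube2c, a partner of the anaphase-promoting complex, at 30 and 29 bases before the start.

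Prc1 (chr7:80294411-80294475, +): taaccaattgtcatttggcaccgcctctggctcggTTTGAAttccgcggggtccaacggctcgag
Ube2c (chr2:164769865-164769928, +): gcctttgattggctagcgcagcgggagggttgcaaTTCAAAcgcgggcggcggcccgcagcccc

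The letters GAAA repeated after any 2 bases (ISRE, the interferon-stimulated response element, either strand) were in 3.81% of all promoters, in 20 of 32 interferon-stimulated promoters (62.5%) and in 0 of 37 replication promoters. They are shown for Ifit3, an antiviral gene, and Cxcl10, a chemokine that attracts T cells.

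Ifit3 (chr19:34583338-34583451, +): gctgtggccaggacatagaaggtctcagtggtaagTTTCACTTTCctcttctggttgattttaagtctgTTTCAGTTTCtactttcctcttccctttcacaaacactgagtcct
Cxcl10 (chr5:92349058-92349137, -): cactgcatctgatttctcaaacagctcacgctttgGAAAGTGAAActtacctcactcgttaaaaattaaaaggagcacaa

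These matches describe letters in a window and do not show that a factor was bound in these tumors. The promoter of Mcm2, of the same helicase, was searched and held no E2F letters. Fold changes were not compared between genes with and without the letters.

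Of 25 p53 targets, 4 rose (Cdkn1a, Mdm2, Trp53inp1 and Gdf15) and 0 fell, against 0.0714% of all genes that rose. With mitochondrially encoded genes removed, 1 of the 25 rose. The median of the list was 0.10 on the log2 scale as deposited and 0.32 after median-ratio scaling, against -0.19 and 0.01 over all genes tested. Cdkn1a (chr17:29090979-29100722, +) was at 116, 83.6, 92.7 and 98.8 TPM in control mice 1 to 4 and at 129, 141, 171 and 122 TPM in RT mice 1 to 4. Every RT mouse was above every control, and the log2 fold change was 0.52 ± 0.13 (SE; limma adjusted p = 0.0303). Mdm2 (chr10:117688888-117710758, -) was far more abundant, at 512, 462, 880 and 721 TPM in the controls and 864, 1150, 1017 and 995 TPM after RT. RT mouse 1 lay just below control mouse 3, and the log2 fold change was 0.69 ± 0.19 (limma adjusted p = 0.0413). Both genes also passed after median-ratio scaling, at 0.74 for Cdkn1a and 0.91 for Mdm2.

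The other called targets were of low abundance. Trp53inp1, which promotes p53-dependent death and autophagy, was at 3.06 to 4.25 TPM in the controls and 5.10 to 6.84 TPM after RT. Gdf15, a secreted stress cytokine, was at 0.556, 0.515, 0.933 and 0.505 TPM in the controls and 3.18, 1.08, 1.98 and 1.31 TPM after RT, with RT mouse 1 the highest. Neither gene overlapped between the groups, and neither passed after median-ratio scaling (limma adjusted p = 0.0532 and 0.0706). Under that scaling 11 of the 25 targets had all RT mice above all controls and 0 had them all below, against 3.6% of all genes in each direction. Among these were Ccng1, a cyclin that feeds back on p53, at 0.63, and Polk, a DNA polymerase that bypasses lesions, at 0.54 on the log2 scale. Bbc3, which encodes the cell death protein PUMA, was at 13.2 to 15.7 TPM in the controls and 10.4 to 12.9 TPM after RT (limma adjusted p = 0.159).

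Trp53, the gene of p53, went the other way. It was at 91.7, 87.3, 89.4 and 102 TPM in the controls and 57.2, 68.6, 70.3 and 67.7 TPM at RT 12 h, with no overlap. The log2 fold change was -0.49 ± 0.10 (limma adjusted p = 0.0246), and after median-ratio scaling it was -0.27 (adjusted p = 0.0584). The other 6 genes that rose on the deposited scale are in no p53 list used here. Sphk1, a kinase that makes sphingosine-1-phosphate, was at 2.6, 2.56, 2.14 and 3.67 TPM in the controls and 5.35, 6.08, 4.81 and 4.83 TPM after RT. Dcxr, a sugar reductase, was at 11.9, 11.9, 8.39 and 13 TPM in the controls and 22.6, 17.1, 25.4 and 19.5 TPM after RT. Both were without overlap between the groups. Serpine2, an extracellular protease inhibitor, was at 151 to 221 TPM and 248 to 292 TPM. Glipr1 was at 107 to 130 TPM and 145 to 175 TPM, Inhbb, a subunit of activin B, at 2.97 to 4.46 TPM and 4.57 to 5.96 TPM, and Chac2, which degrades glutathione, at 2.79 to 4.22 TPM and 4.39 to 6.63 TPM. Every RT mouse was above every control for each of them, which held for 34 of all genes (0.243%) as deposited.

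After median-ratio scaling the 10 genes that rose were Cdkn1a, Mdm2, Glipr1, Cgref1, Pdgfa, Prc1, Chfr, Lhfpl2, Pros1 and Tpp1. The 6 that fell were Ung, Rpia, Hnrnpa0 and 3 pseudogenes or predicted genes. Pdgfa, a growth factor for mesenchymal cells, was at 19.4, 21.3, 19.6 and 21.2 TPM in the controls and 19.8, 26.1, 30 and 26.9 TPM after RT. RT mouse 1 was within the range of the controls as deposited, and after the scaling the groups were apart and its log2 fold change was 0.53 (limma adjusted p = 0.0373). Ugt1a6a, which conjugates drugs and hormones with glucuronic acid, was at 4.20 to 6.42 TPM in the controls and 6.52 to 8.16 TPM after RT, without overlap (limma adjusted p = 0.0548 as deposited). It shares exons with the other Ugt1a genes, so its reads may be split among them.

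**Figure D2:**
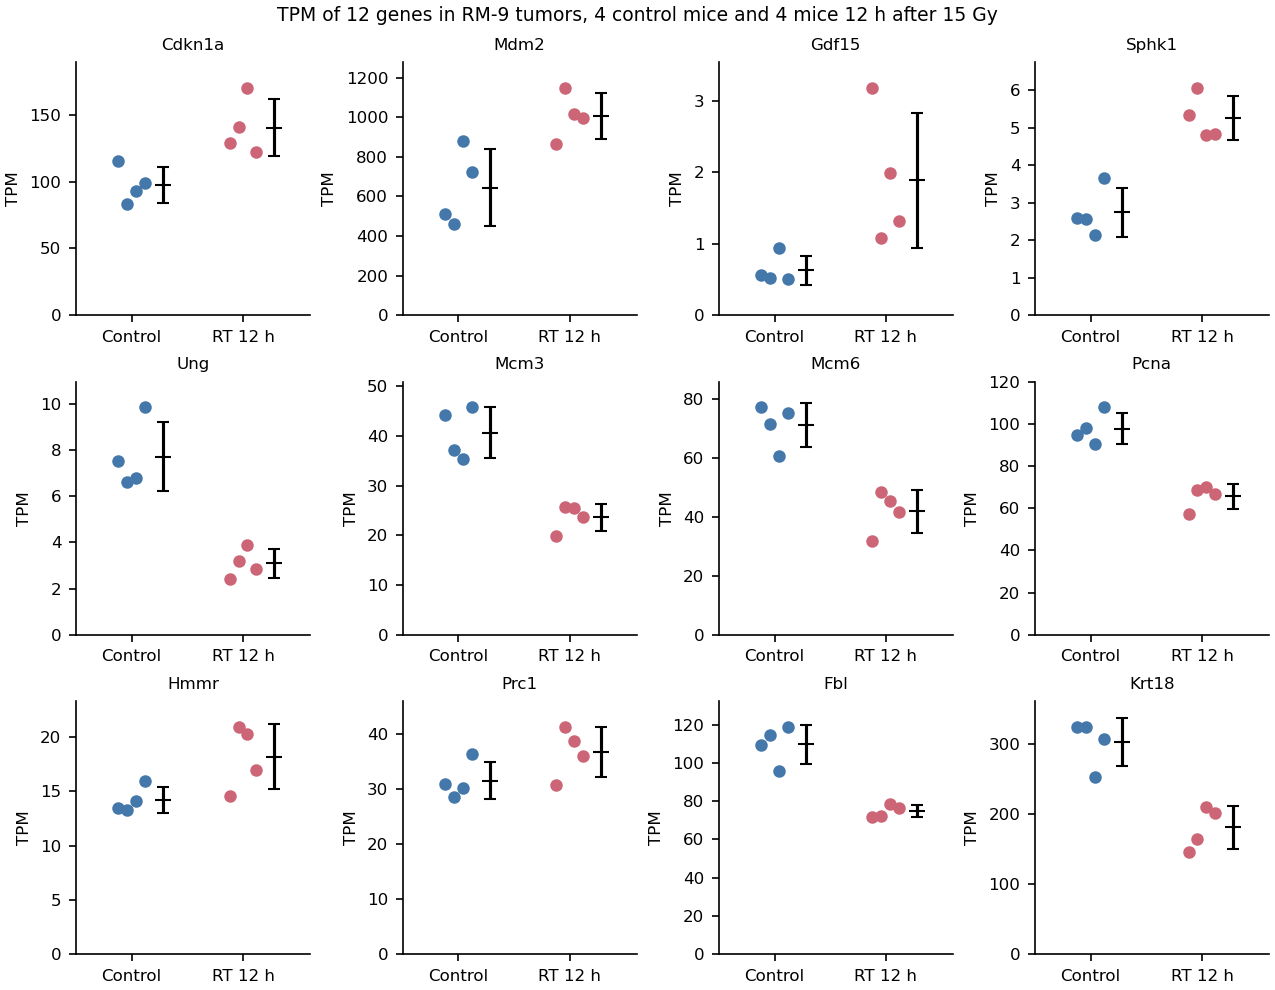
TPM of 12 genes in each RM-9 tumor, 4 control mice (blue) and 4 mice at RT 12 h (red); points run from mouse 1 to mouse 4, and bars are mean and SD. RT mice lie above all controls for Cdkn1a, Gdf15 and Sphk1, below them for Ung, Mcm3, Mcm6, Pcna, Fbl and Krt18, and overlap with them for Mdm2, Hmmr and Prc1.

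The DNA replication and G1/S list moved downward. Of its 45 genes, 19 fell (42.2%) and 0 rose, against 8.3% lower among all genes, and 4 of them (Mcm2, Mcm3, Mcm4 and Mcm6) also fell with mitochondrially encoded genes removed, against 0.45% of all genes. The median was -0.44 as deposited and -0.23 after median-ratio scaling, where 44 of the 45 were negative. All RT mice lay below all controls for 30 of the 45 as deposited (19.4% of all genes) and for 17 after median-ratio scaling (3.6% of all genes). No member passed the test after that scaling, with adjusted p = 0.0532 for Mcm2 and Mcm3.

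All 6 subunits of the MCM helicase fell on the deposited scale. Mcm3 (chr1:20802968-20820312, -) was at 44.2, 37.2, 35.3 and 45.8 TPM in the controls and 19.9, 25.7, 25.5 and 23.6 TPM after RT. Mcm6 (chr1:128331590-128359664, -), whose promoter holds the E2F letters at 2 places, was at 77.4, 71.6, 60.8 and 75.4 TPM and at 31.8, 48.6, 45.6 and 41.7 TPM. The log2 fold change was -0.77 ± 0.15 for each (limma adjusted p = 0.0246), with RT mouse 1 the lowest in both genes and no overlap. Mcm2, Mcm4 and Mcm5 had log2 fold changes of -0.70, -0.68 and -0.67. Mcm7 had the smallest, at -0.44.

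Genes that act behind the helicase fell by similar amounts. Pcna, the sliding clamp of the replicative polymerases, was at 94.7, 98.3, 90.4 and 108 TPM in the controls and 57.2, 68.6, 70 and 66.7 TPM after RT. Lig1, which joins Okazaki fragments, was at 13.4 to 19.4 TPM and 7.63 to 10.9 TPM. Fen1, the flap endonuclease, was at 18.4 to 25.4 TPM and 13.2 to 14.8 TPM, and Chaf1b, a subunit of the factor that loads histones onto new DNA, at 9.20 to 13.7 TPM and 5.76 to 7.01 TPM. The groups were apart for each of these genes.

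Ung, the uracil-DNA glycosylase that removes uracil from newly made DNA, was not in the list and had a larger fall than any MCM gene. It (chr5:114130386-114139323, +) was at 7.52, 6.62, 6.81 and 9.87 TPM in the controls and 2.40, 3.19, 3.90 and 2.87 TPM at RT 12 h. The highest RT mouse was below the lowest control. Its log2 fold change was -1.19 ± 0.17 (limma adjusted p = 0.0246) and -1 after median-ratio scaling (adjusted p = 0.0195). Ung was also the only gene (0.00693%) that passed when FPKM was used in place of TPM. Beside it, Rpia of the pentose phosphate pathway and the RNA-binding protein gene Hnrnpa0 fell on both scales. Rpia was at 10.3 to 15.5 TPM in the controls and 6.80 to 8.04 TPM after RT, and Hnrnpa0 at 90.2 to 97.7 TPM and 57.2 to 67.3 TPM.

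The mitosis and G2/M list did not follow the replication list. Of its 52 genes, 0 rose and 0 fell on the deposited scale, where the median was -0.08. After median-ratio scaling the median was 0.14, 47 of 52 genes were positive, and 11 had all RT mice above all controls and 0 below, against 3.6% of all genes in each direction. Hmmr, a spindle protein, was at 13.4, 13.3, 14.1 and 15.9 TPM in the controls and 14.5, 21, 20.3 and 17.0 TPM after RT. Prc1, shown above with its CHR letters, was at 31, 28.7, 30.2 and 36.5 TPM and at 30.9, 41.4, 38.8 and 36.0 TPM. Both genes overlapped between the groups as deposited, with RT mouse 1 the lowest RT mouse. Prc1 rose after median-ratio scaling (log2 fold change 0.43, limma adjusted p = 0.0467) and not as deposited (0.21 ± 0.12, adjusted p = 0.243). Ube2c was at 126 to 166 TPM and 147 to 178 TPM, and Nusap1, a microtubule-binding protein, at 12.6 to 15.8 TPM and 13.6 to 20.3 TPM. Mki67, the gene of the proliferation marker Ki-67, was at 10.2 to 14.7 TPM and 8.11 to 10.4 TPM, and Cdc20, an activator of the anaphase-promoting complex, at 32.7 to 54.4 TPM and 31.4 to 40.5 TPM. Neither passed the test, and both were below the median of the list. Chfr, a checkpoint ligase of early mitosis, rose after median-ratio scaling by 0.45 (limma adjusted p = 0.0373), with 7.24 to 8.20 TPM in the controls and 8.04 to 9.95 TPM after RT.

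Of 19 DNA damage checkpoint genes, 2 fell (10.5%) and 0 rose. That share is near the 8.3% over all genes, so the count is not particular to the list. Chek1, the kinase downstream of ATR, was at 3.96 to 4.88 TPM in the controls and 2.55 to 2.93 TPM at RT 12 h, and H2afx, the histone phosphorylated at breaks, at 52.9 to 73.5 TPM and 39.3 to 44.1 TPM. Of 25 homologous recombination and Fanconi anemia genes, Nbn (4.31 to 5.80 TPM and 2.73 to 3.58 TPM) and Fancl fell (8%) and 0 rose, a share again near that of all genes. With mitochondrially encoded genes removed, 0 genes of either list passed. None of 13 end joining genes passed. The medians of these 3 lists after median-ratio scaling lay between -0.03 and 0.03.

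Of 29 ribosome biogenesis genes, 12 fell (41.4%, against 8.3% of all genes) and 0 rose. The median was -0.41 as deposited and -0.19 after median-ratio scaling, where 8 had all RT mice below all controls (3.6% of all genes) and none passed the test, and 0 passed with mitochondrially encoded genes removed. Fbl, the methyltransferase fibrillarin of the nucleolus, was at 109, 115, 95.7 and 119 TPM in the controls and 71.8, 72.5, 78.6 and 76.7 TPM after RT. Its log2 fold change was -0.54 ± 0.12 (limma adjusted p = 0.0277), and the groups did not overlap. Nop56, a partner of fibrillarin, was at 194 to 257 TPM and 139 to 174 TPM. Rrp12, which takes part in export of the ribosomal subunits, had the largest fall of the list, at 7.45 to 10.6 TPM and 5.37 to 6.20 TPM. Npm1, which has many processed copies in the genome, was at 900 to 1065 TPM and 658 to 805 TPM.

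**Figure D3:**
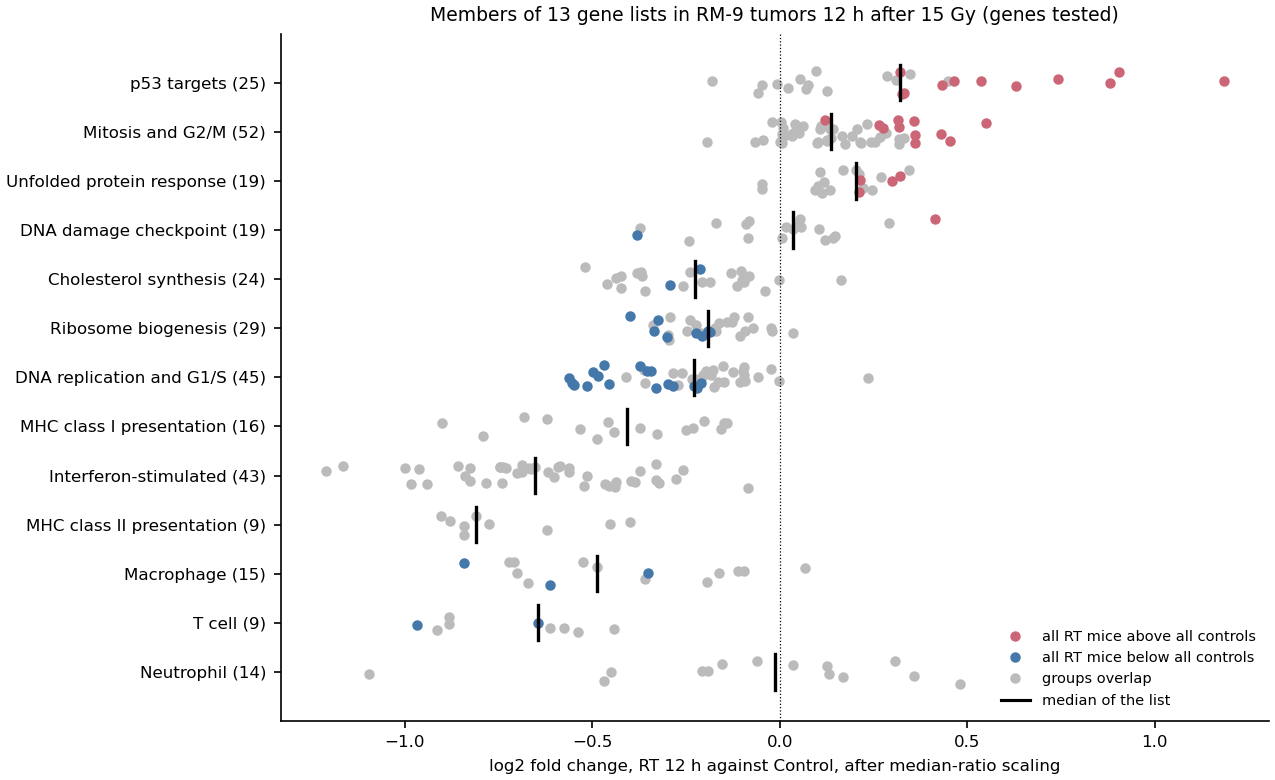
Log2 fold change of each tested member of 13 gene lists, RT 12 h against Control, after median-ratio scaling (number of genes tested in parentheses). Red and blue points are genes with all RT mice above or below all controls, gray points overlap, and black lines are list medians, from 0.32 for p53 targets to -0.81 for MHC class II genes.

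Of 6 epithelial markers tested, 1 fell (16.7%, against 8.3% of all genes), the keratin gene Krt18. After median-ratio scaling 2 of the 6 had positive fold changes. Krt18 was at 325, 325, 253 and 307 TPM in the controls and 146, 164, 211 and 202 TPM at RT 12 h. The log2 fold change was -0.75 ± 0.14 (limma adjusted p = 0.0246) with no overlap, and -0.53 after median-ratio scaling (adjusted p = 0.0706). Krt8, with which Krt18 forms filaments, was at 805 to 980 TPM and 463 to 767 TPM (limma adjusted p = 0.0542). Actb, often used as a reference gene, was at 1399 to 1636 TPM in the controls and 1021 to 1175 TPM after RT, and its log2 fold change moved from -0.48 as deposited to -0.26 after median-ratio scaling.

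The interferon-stimulated genes lay far below the median gene, but varied between mice. Their 43 genes had a median of -0.84 as deposited and -0.65 after median-ratio scaling, with 43 of 43 negative, yet only Ifit3 and Rtp4 fell (4.65%, below the 8.3% over all genes) and none had separate groups after scaling. Their summed level was 495, 587, 352 and 588 TPM in control mice 1 to 4 and 240, 222, 466 and 202 TPM in RT mice 1 to 4. RT mouse 3 was within the range of the controls, and the other 3 RT mice were below it. Ifit3 (chr19:34583531-34588731, +) was at 14.8, 19.4, 9.39 and 17.0 TPM in the controls and 4.20, 3.99, 11.4 and 3.64 TPM after RT. Its log2 fold change was -1.41 ± 0.39 (limma adjusted p = 0.0418), and -1.21 after median-ratio scaling (adjusted p = 0.184). Cxcl10 was at 30.2, 36.9, 20.7 and 34.3 TPM and at 10.5, 7.85, 21.2 and 8.84 TPM (limma adjusted p = 0.0656). Irf1, a transcription factor of the interferon response, was at 15.9 to 22.5 TPM and 12.6 to 19.5 TPM (limma adjusted p = 0.289).

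Several MHC genes fell on the deposited scale. Of 16 MHC class I presentation genes 4 fell (25%, against 8.3% of all genes), including the immunoproteasome subunits Psmb8, at 9.07 to 16.5 TPM in the controls and 4.96 to 8.46 TPM after RT, and Psmb9, at 3.89 to 7.92 TPM and 1.97 to 3.59 TPM. Of 9 MHC class II genes tested 7 fell (77.8%, against 8.3% of all genes), with a median of -1.02. All RT mice lay below all controls for 4 class I genes and 1 class II gene as deposited (19.4% of all genes). After median-ratio scaling this held for 0 genes of either list (3.6% of all genes). With mitochondrially encoded genes removed, 0 genes of either list fell. Cd74, the invariant chain that guides class II molecules, was at 361, 393, 182 and 489 TPM in the controls and 237, 142, 144 and 116 TPM after RT. Its log2 fold change was -1.12 ± 0.29 (limma adjusted p = 0.034), with RT mouse 1 above control mouse 3. H2-Aa, an alpha chain of class II, was at 139, 153, 68.8 and 198 TPM and at 98.4, 61.3, 55.4 and 44.7 TPM. No member of either list passed after median-ratio scaling, and H2 genes are a family of near copies whose reads may be split.

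Several T cell and macrophage markers fell on the deposited scale, and few of the other immune markers did. In bulk tissue, fewer cells of a type and less RNA per cell cannot be told apart. Of 19 T cell markers, 9 were abundant enough to test and 7 fell (77.8%, against 8.3% of all genes). With mitochondrially encoded genes removed 1 of them, Trac, fell, and none passed after median-ratio scaling. The median was -0.82 as deposited and -0.65 after median-ratio scaling. The summed levels were 26.4, 21.6, 18.0 and 33.0 TPM in the controls and 15.7, 8.68, 10.5 and 6.79 TPM after RT. The 4 sums after RT were all below the 4 of the controls on this deposited scale. With mitochondrially encoded genes removed the groups met, with RT mouse 1 at 36.63 TPM and control mouse 3 at 36.36 TPM. Trac, the constant region of the T cell receptor alpha chain, was at 2.67, 2.77, 3.01 and 4.50 TPM and at 1.73, 0.987, 1.09 and 0.964 TPM. Its log2 fold change was -1.14 ± 0.21 (limma adjusted p = 0.0246) and -0.97 after median-ratio scaling (adjusted p = 0.0692), with no overlap on either scale. Trbc2, of the beta chain, was at 3.57 to 7.43 TPM and 1.70 to 2.98 TPM, and Ptprcap, a CD45-associated protein of lymphocytes, at 1.66 to 3.20 TPM and 0.456 to 1.08 TPM. Ighm, the heavy chain of IgM, was at 1.28 to 3.23 TPM and 0.138 to 0.636 TPM, without overlap between the groups. It was the 1 of 3 B cell markers tested that fell (33.3%, against 8.3% of all genes). Neither Ptprcap nor Ighm passed after median-ratio scaling. Of 8 NK and cytotoxic cell markers tested 0 fell, with a median of -0.73. Of 11 monocyte and dendritic cell markers 1 fell (Fscn1, 9.09%), a share near the 8.3% over all genes, with a median of -0.48.

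Of 15 macrophage markers tested 5 fell (33.3%, against 8.3% of all genes). With mitochondrially encoded genes removed 0 fell, and none passed after median-ratio scaling. The median was -0.69 as deposited and -0.49 after median-ratio scaling, where 3 had all RT mice below all controls (3.6% of all genes). Their summed level was 1014, 876, 651 and 970 TPM in the controls and 678, 356, 692 and 548 TPM after RT, so RT mice 1 and 3 lay above control mouse 3. C1qa, of the complement starter C1q, was at 188, 184, 119 and 191 TPM and at 114, 53.2, 107 and 88.8 TPM (log2 fold change -0.94 ± 0.22, limma adjusted p = 0.0303). Cybb, the catalytic subunit of the phagocyte oxidase, was at 6.25, 6.16, 5.01 and 7.51 TPM and at 2.91, 2.08, 3.23 and 2.33 TPM. It fell by 1.10 on the log2 scale with no overlap, while Lyz2, the lysozyme of myeloid cells, did not pass (203 to 352 TPM and 124 to 260 TPM, limma adjusted p = 0.306). The complement gene C3 was at 3.41 to 8.39 TPM and 0.952 to 3.39 TPM, and Pld4, a nuclease of phagocytes and plasmacytoid cells, at 9.75 to 18.5 TPM and 3.89 to 7.90 TPM. The non-coding RNA AW112010, known from activated lymphocytes and myeloid cells, was at 9.53 to 16.6 TPM and 4.02 to 8.89 TPM, and fell as well (log2 fold change -1.28 ± 0.27, limma adjusted p = 0.0261). None of Cybb, C3, Pld4 and AW112010 passed after median-ratio scaling.

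None of 14 neutrophil markers tested passed, with sums of 33.6 to 47.4 TPM in the controls and 26.7 to 44.3 TPM after RT. None of 18 endothelial markers passed either, and their median of -0.26 was close to that of all genes. Of 5 ligands of the neutrophil receptor CXCR2, 0 passed at 12 h. Cxcl2 was at 0.664, 0.853, 0.621 and 0.102 TPM in the controls and 0.897, 2.68, 1.58 and 1.45 TPM after RT (log2 fold change 1.02 ± 0.39, limma adjusted p = 0.0964). Cxcl1 was at 0.733 to 0.994 TPM in the controls and at 1.27, 4.14, 1.15 and 1.08 TPM after RT (adjusted p = 0.275), with RT mouse 2 the highest. Both genes had all RT mice above all controls (0.243% of all genes) at levels near 1 TPM, while the groups overlapped for Cxcl3, Cxcl5 and Ppbp. Ptgs2, the prostaglandin synthase COX-2, was at 24.0 TPM in RT mouse 2 and 3.72 to 7.81 TPM in the other RT mice, against 1.86 to 4.26 TPM in the controls.

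The tissue around the tumor differed between libraries as well. The 20 skeletal muscle markers summed to 3196, 1891, 342 and 1563 TPM in control mice 1 to 4 and to 14.5, 45.0, 1294 and 127 TPM in RT mice 1 to 4. RT mouse 3 was within the range of the controls and the other 3 RT mice were below it. None of the 19 muscle genes tested passed (median -3.35). Rtn2, which is most abundant in muscle and is in no marker list, was at 5.56 to 15.7 TPM in the controls and 2.57 to 4.97 TPM after RT. Its log2 fold change was -1.21 ± 0.33 (limma adjusted p = 0.0413), and it did not pass after median-ratio scaling. Muscle RNA is part of the fixed TPM total, and its part in the other changes was not tested.

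**Figure D4:**
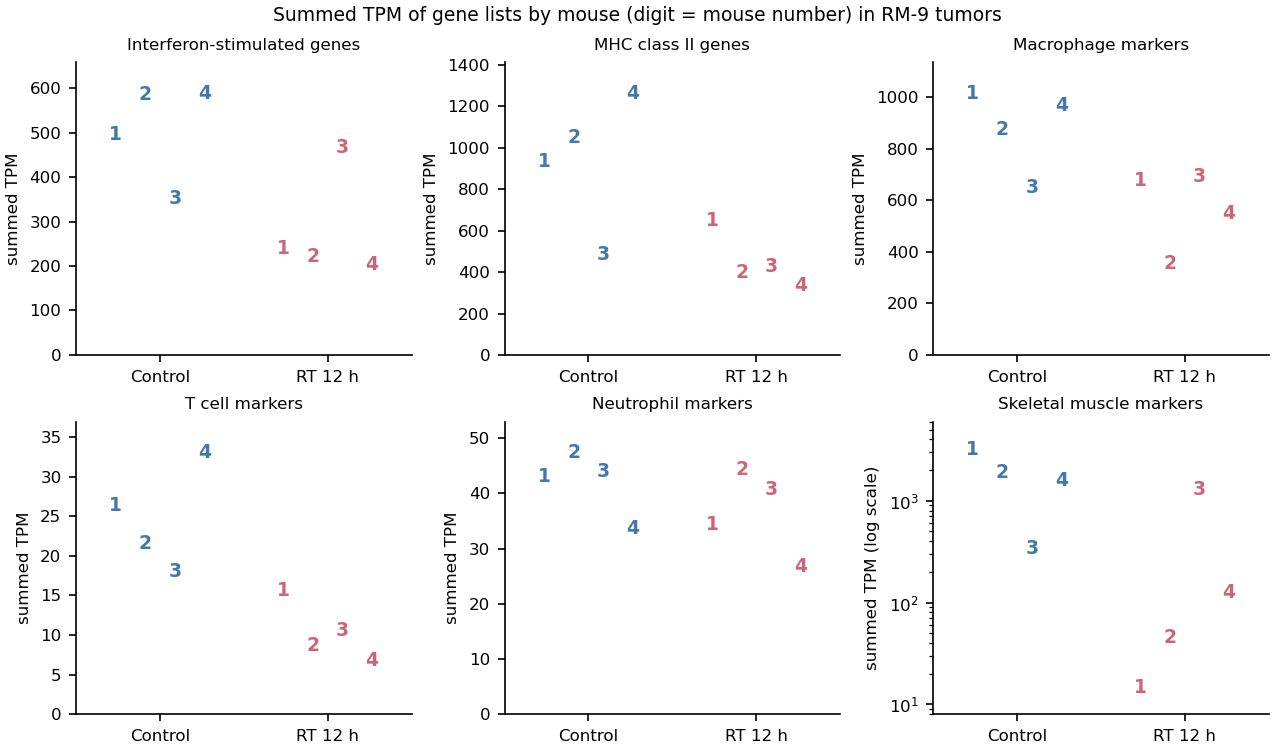
Summed TPM of 6 gene lists in each RM-9 tumor; the digit is the mouse number, blue for Control and red for RT 12 h, and the skeletal muscle axis is logarithmic. RT mouse 3 keeps interferon-stimulated and muscle sums (466 and 1294 TPM) within the range of the controls. Only the T cell sums do not overlap on this deposited scale, and they do with mitochondrially encoded genes removed.

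The 12 h values were set beside the other RM-9 times, each compared with the same 4 controls, so the comparisons are not independent. The 24 h group held mice 1 to 3 only, with mitochondrial shares of 54.3%, 47.3% and 49.3% of the TPM. Relative to the median of all genes, the p53 targets had a median of 0.61 at 3 h, 0.29 at 12 h and 0.33 at 24 h. The log2 fold change of Mdm2 was 1.27 at 3 h, 0.69 at 12 h and 0.52 at 24 h, and that of Trp53inp1 was 1.72, 0.68 and 0.76. The replication list had relative medians of -0.08, -0.25 and -0.13, and Mcm6 log2 fold changes of -0.09, -0.77 and -0.18. The mitosis list had -0.25, 0.11 and -0.20, so 12 h was the time at which it lay above the median gene. The interferon-stimulated list had -0.44, -0.65 and 0.18, and Ifit3 log2 fold changes of -1.03, -1.41 and 0.16. The T cell markers had relative medians of -0.65, -0.63 and -0.38, and the macrophage markers -0.46, -0.50 and -0.05. MHC class II genes had -0.55, -0.83 and -0.42, and skeletal muscle markers -3.9, -3.16 and -0.39, so these lists were also below the median gene at 3 h. Differences between the times were not tested.

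MC-38 colon tumors, 4 controls and 4 at RT 12 h, allowed a test of where the 12 h change in RM-9 differed from that of another tumor model. The difference between the models (MC-38 minus RM-9, in 1 limma fit of all 31 libraries) passed for 6903 genes upward (44.9%) and 72 downward (0.469%) as deposited, with a median of 0.50 on the log2 scale, and the fold change of the median gene in MC-38 was 0.33. After median-ratio scaling it passed for 230 in each direction (1.51% each). Replication genes were among those that differed on both scales. Mcm3 had log2 fold changes of -0.77 in RM-9 and 0.37 in MC-38, and the difference was 1.13 ± 0.17 as deposited and 0.60 ± 0.13 after median-ratio scaling (limma adjusted p = 0.000704 and 0.0142). Mcm2, Mcm4, Lig1 and Chaf1b also differed on both scales, and so did Trp53. The log2 fold change of Trp53 in MC-38 was 0.44 as deposited (limma adjusted p = 0.0271). That value and the 0.37 of Mcm3 are on the deposited scale, where the median gene in MC-38 was itself at 0.33. The replication list had a relative median of -0.25 in RM-9 and 0.05 in MC-38. Relative medians of the T cell, macrophage and MHC class II lists were -0.63, -0.50 and -0.83 in RM-9 and -1.01, -1.52 and -1.22 in MC-38. Those of the interferon-stimulated and MHC class I lists were -0.65 and -0.42 in RM-9 and 0.10 and -0.06 in MC-38.

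The fall of Ung was not shown to differ between the models. It fell by 0.77 on the log2 scale in MC-38 (limma adjusted p = 0.0144), and the difference after median-ratio scaling was -0.04 ± 0.19 (limma adjusted p = 0.937). Cdkn1a and Mdm2 did not differ past the threshold on either scale. Ifit3 differed as deposited (1.75 ± 0.45, limma adjusted p = 0.00554) and not after median-ratio scaling (1.25 ± 0.46, adjusted p = 0.121). Cgref1, a cell growth regulator, was at 18.8, 23.4, 22 and 24 TPM in RM-9 controls and 26.8, 28.4, 25.6 and 29.8 TPM after RT. Its groups did not overlap, it rose after median-ratio scaling by 0.54 (limma adjusted p = 0.0373), and its change differed from that in MC-38 on both scales.

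**Figure D5:**
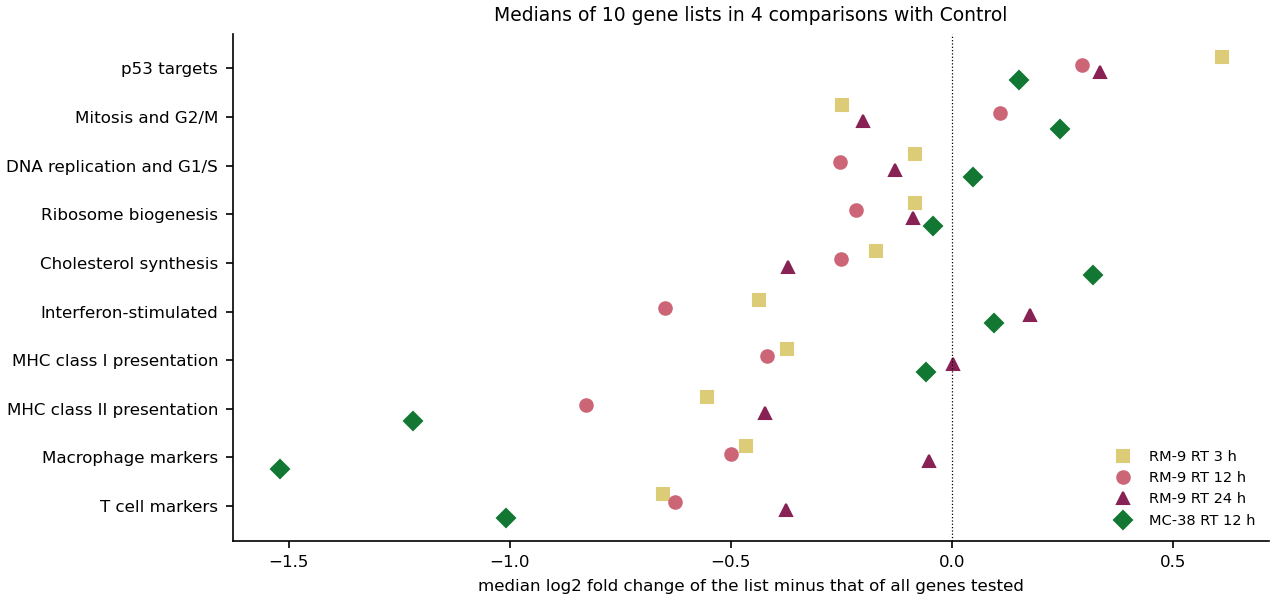
Median log2 fold change of 10 gene lists minus that of all genes tested, for RM-9 at 3, 12 and 24 h and MC-38 at 12 h, each against its own controls. The RM-9 24 h group held mice 1 to 3 only. At 12 h in RM-9 the replication list lies at -0.25 and the mitosis list at 0.11; in MC-38 they lie at 0.05 and 0.24.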

How the data were processed

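RNA was extracted from tumor tissue, and 2 µg per library was made into stranded mRNA libraries and read as single-end reads of 75 bases, per the labels and the study's methods. The authors deposited 1 table per library with TPM, FPKM and coverage for each gene. TPM was scaled by the authors within each library, mitochondrially encoded genes included, and FPKM deposited by the authors is a constant multiple of it in each library. Coverage was deposited as mean read depth per base, and its ratio to FPKM gave the estimated depth. The tables hold no read counts, so the counting error of single genes is unknown. The submitters' processing notes name bcl2fastq 2.17 and GRCm39, whereas the coordinates in the tables matched GENCODE M21 (GRCm38) by chromosome for all 45137 shared identifiers. The aligner and the abundance program are not given in the sources used here. For mt-Nd4l, FPKM was 42.4-fold the value its coverage gives.

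TPM was summed per gene. The limma package (3.58.1, R 4.3.3; lmFit and eBayes with a trend, 4 groups in 1 fit) tested log2(TPM + 0.5) of genes with a mean of at least 0.5 TPM over the 15 RM-9 libraries, with Benjamini-Hochberg adjustment, and fold changes are on that scale, which understates those of low genes. The difference between MC-38 and RM-9 was a contrast in 1 fit of 31 libraries. Library values were compared by exact permutation over 70 assignments, two-sided. The limma fits were tested on simulated data. Tables used pandas 2.3.3, numpy 2.4.6 and scipy 1.17.1 under Python 3.11.15, and figures matplotlib 3.10.9. Nothing in the labels shows shared batches, and p-values measure the spread between these mice.

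The 41 gene lists and the comparison were chosen with earlier results of these data known. Genes were named by a rule: up to 12 rising and 12 falling genes with the largest change among those past the threshold with a mean of at least 1 TPM and no overlap, as deposited and with mitochondrially encoded genes removed; 10 in each direction relative to the median gene with a mean of at least 5 TPM and unadjusted p under 0.01; and in each list the 3 with the smallest p and the 3 most abundant. Ccng1, Polk, Bbc3, Trp53, Hnrnpa0, Mcm4, Mcm5, Mcm7, Lig1, Chaf1b, Fen1, Prc1, Nusap1, Cdc20, Fbl, Actb, Cxcl10, Irf1, Arntl, Cxcl1, Nfkbiz, Ptgs2, Lhfpl2, Pros1 and Tpp1 were named after their values were seen. Alternatives were other pseudocounts, filters, scalings, a replicate block, a fit without a trend, only the compared groups, and each mouse left out. One marker gene is not reported here.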

Additional observations from a re-analysis of the deposited data

Results flagged for a closer look

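In groups of 4 mice a value is listed here when its gap to the nearest mouse takes nearly the whole range of its group, which chance alone does in about 5% of groups. The 85 genes followed were screened, so at that rate chance alone gives several such values. Among controls the high values were 0.933 TPM for Gdf15, 4.46 TPM for Inhbb (both control mouse 3) and 61.8 TPM for Mcm7 (control mouse 4). The low ones were 119 TPM for C1qa (control mouse 3) and 1.47 TPM for Nfkbiz (control mouse 1). At RT 12 h the high values were 8.04 TPM for Rpia, 11.4 TPM for Ifit3, 7.66 TPM for Rtp4, 466 TPM for the interferon-stimulated sum and 1294 TPM for the skeletal muscle sum, all in RT mouse 3. Trac stood apart in RT mouse 1 at 1.73 TPM and Cxcl1 in RT mouse 2 at 4.14 TPM.

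The 12 h change differed between MC-38 and RM-9 on both the deposited and the median-ratio scale (limma adjusted p under the threshold) for 12 of the 85 genes followed. Over all genes the difference passed for 44.9% upward as deposited and for 1.51% in each direction after median-ratio scaling. Many of the 85 were named for their 12 h change in RM-9, which enters this difference, so the count is no separate support. The deposited values below include a median of 0.50 over all genes. On the deposited scale the log2 difference, MC-38 minus RM-9, was 0.92 for Trp53, 1.08 for Mcm2, 1.13 for Mcm3, 1.19 for Mcm4, 1.29 for Lig1, 1.06 for Chaf1b, 1.02 for Rrp12, 1.06 for Haus4, a subunit of the spindle complex augmin, and 1.35 for Fdps and 1.47 for Mvd, both of the mevalonate pathway. It was -1.06 for Cgref1 and -0.58 for mt-Cytb.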

How the results depend on the processing

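The 1173 genes past the threshold became 79 with mitochondrially encoded genes removed (73 shared with the 1173), 8 with their nuclear copies removed too, 16 after median-ratio scaling, 1 with FPKM (Ung), 571 without a filter, 1 with only the compared groups in the fit, and 43 with an absolute log2 fold change of at least 1. Leaving out single mice gave 0 to 1573 genes as deposited, with 604 without RT mouse 2, and 0 to 139 (35 without control mouse 2) with mitochondrially encoded genes removed, the latter chosen after seeing the data. The difference between MC-38 and RM-9, 6975 genes as deposited, gave 2234, 707, 517 and 460 under removal of mitochondrially encoded genes, removal with nuclear copies, FPKM and median-ratio scaling, and 4237 to 8586 with single mice left out, the lowest without MC-38 control mouse 1. The share of calls upward moved from 0.853% as deposited to 62.5% after median-ratio scaling. The median shift of -0.196 was -0.0555 with mitochondrially encoded genes removed, -0.0161 with FPKM, and -0.229 to -0.137 with single mice left out. The mitochondrial share kept its call with any mouse left out (3.85 to 5.44 points). Replicate numbers did not pair the mice: the correlations of same-numbered deviations were -0.21, -0.14, -0.39 and 0.07, and the replicate block gave 1088 genes as deposited (957 shared), 7709 for the difference between the models, and 0 with mitochondrially encoded genes removed, where 2386 had an unadjusted p under 0.05. None of the 85 genes followed through the alternatives reversed its direction, but many results weakened. Of 2339 pairs of gene and setting, 1271 were the same as in the main fit, 1039 weaker and 29 stronger. The cause of these changes was not tested.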

Other observations

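Of 24 cholesterol synthesis genes, 2 fell at RT 12 h (Mvd and Fdps), a share of 8.33% that is near the 8.3% over all genes. The list had a median of -0.44 as deposited and -0.23 after median-ratio scaling, against -0.19 and 0.01 over all genes. Fdps, which makes farnesyl pyrophosphate, was at 31, 43.4, 46.5 and 38.6 TPM in the controls and 15.9, 28.4, 30.4 and 22.2 TPM after RT (log2 fold change -0.73 ± 0.21, limma adjusted p = 0.0469). The groups did not overlap as deposited and did after median-ratio scaling.

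None of 19 unfolded protein response genes passed, and their median was -0.01 as deposited and 0.20 after median-ratio scaling. Under that scaling 4 of the 19 had all RT mice above all controls, against 3.6% of all genes. Calr, a chaperone of the endoplasmic reticulum, was at 248 to 291 TPM in the controls and 250 to 336 TPM after RT (limma adjusted p = 0.452).

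The harvest times of the groups differ, and clock genes were read for that reason. Of 16 clock genes tested, 1 fell (6.25%, below the 8.3% over all genes) and 0 rose. The median of the 16 was -0.18 as deposited and 0.03 after median-ratio scaling, against -0.19 and 0.01 over all genes. The gene that fell was Nr1d2, a repressor of the clock, at 7.92 to 11.2 TPM in the controls and 5.16 to 7.15 TPM after RT. Its log2 fold change was -0.56 ± 0.15 (limma adjusted p = 0.0359), and it did not pass after median-ratio scaling (limma adjusted p = 0.159). Dbp, an output gene with a strong daily rhythm, was at 7.41 to 10.8 TPM and 3.92 to 6.37 TPM (limma adjusted p = 0.0554) without overlap, and Arntl, the gene of BMAL1, at 4.71 to 8.31 TPM and 5.43 to 9.54 TPM (limma adjusted p = 0.48). Their part in the other changes was not tested.

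Of the 9 mitochondrially encoded protein genes with values, none passed on the deposited scale, where their median was 0.16. mt-Co1 was at 6413, 6587, 6936 and 5955 TPM in the controls and 7713, 7379, 7060 and 7097 TPM after RT, and mt-Cytb at 4390 to 4701 TPM and 4882 to 5798 TPM, both without overlap.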
